A study of Mus musculus with 4 samples.

Results

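The genes described here encode the enzymes of glycolysis, the pentose phosphate pathway and the citrate cycle, with the cytosolic enzymes that share metabolites with the cycle. The 32 gene symbols were given as a list. A probe set was counted where the platform annotation gave it exactly 1 symbol equal to a listed gene, which found 31 probe sets of 23 genes among 13069 probe sets and 6137 named genes. No probe set was named for the other 9 (Hk3, Gpi1, Pfkp, Aldoc, Eno1, G6pdx, Ogdh, Sdha and Fh1). Cells came from mice lacking the transcription factor C/EBPε (C/EBPE -/-, here Cebpe-deficient) and from wild-type (+/+) mice, both 129/SvEv x NIH Black Swiss. Per the labels, 4 mice of each genotype, 6 to 8 weeks old, received 2 ml of 4% thioglycollate broth into the peritoneum, a sterile irritant that draws in neutrophils and then monocytes. Exudate cells were lavaged out at 24 h, and in both genotypes held approximately 30% monocytes, 60% neutrophils and 7 to 10% lymphocytes by cytospin. Total RNA was hybridised to 2 Affymetrix array types, A and B, with 1 array per genotype and type. There were therefore 4 arrays, no replicates and no tests, and every difference below compares 1 array with 1 array. No probe set was named for Cebpe itself, so its signal gives no check of the labels.

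Glycolysis splits glucose to pyruvate and yields ATP without oxygen, and neutrophils are known to draw most of their energy from it. The pentose phosphate pathway branches off after the first phosphorylation and makes NADPH, which phagocytes use for the oxidative burst and for keeping glutathione reduced. The citrate cycle oxidises acetyl-CoA in mitochondria, and in activated macrophages it also supplies citrate for fatty acids and cis-aconitate for itaconate.

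Most of these enzymes differed in signal between the genotypes by less than the limit of measurement error given below, and the NADP-dependent isocitrate dehydrogenases stood furthest out on either side. Idh2, the mitochondrial form, was 2.26-fold lower in Cebpe-deficient cells, and Idh1, the cytosolic form, was 1.98-fold higher. Intensities were compared where both arrays of a type were above a signal floor, the median of all scaled values of that type (1036.5 on A, 690.17 on B). Of the 31 probe sets 28 passed, which gave 20 of the 23 genes a log2 ratio (deficient divided by wild-type, the quantity meant by ratio below unless a fold is given), and the other 3 genes (Pfkm, Pgk1 and Me1) were at or below the floor in both genotypes. For genes with more than 1 measured probe set, the brightest relative to the floor was taken. Past 2-fold, 0 of the 20 genes were higher and 1, Idh2, was lower, where 2.97% of 3132 measured genes were higher and 3.64% lower. The members' counts, 0 and 1 of 20, lie near that background. The median log2 ratio was -0.10, with 12 of 20 genes below 0, against 0.01 and 49.0% below 0 over all measured genes. The members' median was 0.13 on A alone and without family-shared probe sets. Under scaling to the bacterial hybridisation controls it was 0.17, while that of all measured probe sets moved to 0.21 on A and 0.36 on B. In such mixed cells, fewer cells of a type and less RNA per cell cannot be told apart.

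**Figure D1:**
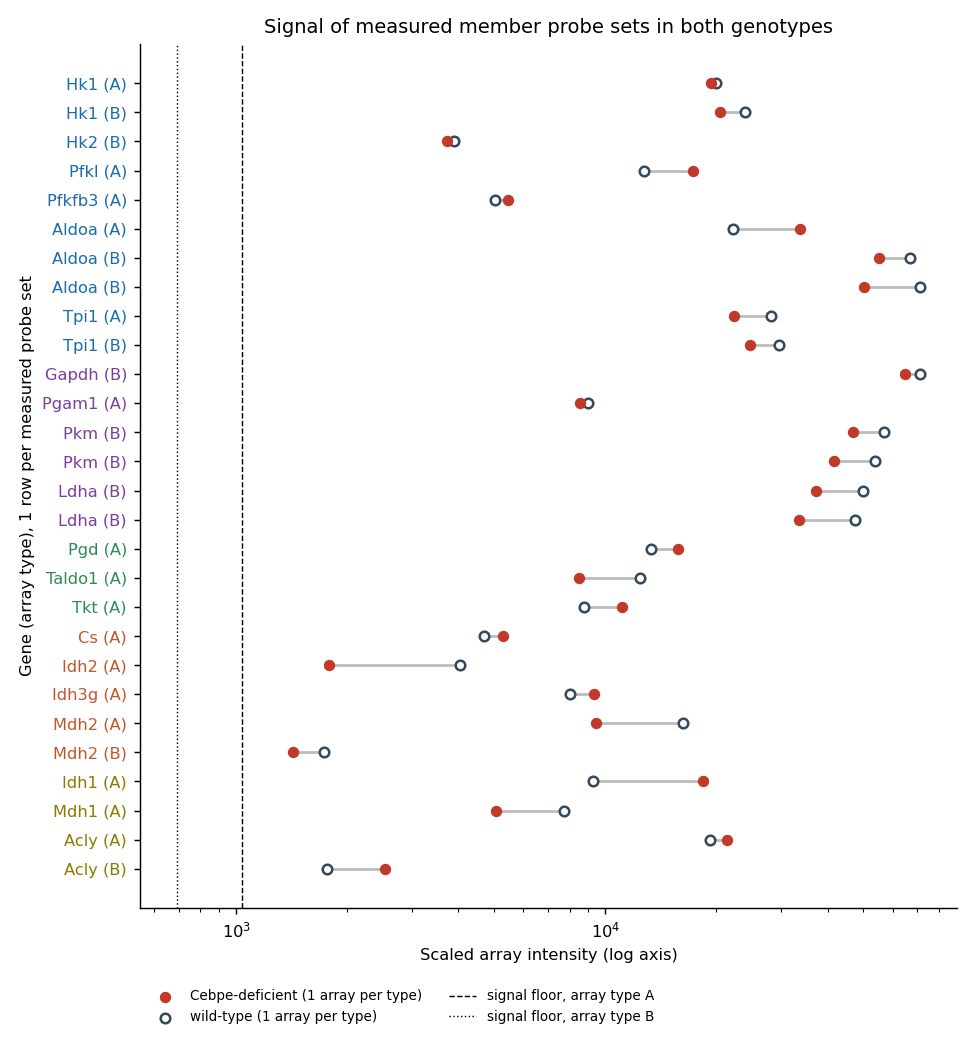
Scaled intensity (log axis) of each measured probe set in Cebpe-deficient cells (filled red) and wild-type cells (open), 1 array per genotype and array type, with the signal floor of each type as a vertical line. Idh2, at 1783 in deficient and 4037 in wild-type cells, and Idh1, at 18370 in deficient and 9280 in wild-type cells, show the widest gaps; label colours mark the pathway steps in the order hexose stage, triose stage, pentose phosphate, mitochondrial cycle and cytosolic partners.

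The precision of 1 ratio was taken from repeat probe sets of the same gene, whose log2 ratios had a pooled SD of 0.33 above 3 times the floor (240 genes) and 0.45 below it (76 genes). Probe sets of both array types were pooled, so that error holds part of the spread between the types. It gives no measure of the spread between mice, or between repeat arrays of 1 type. Ratios beyond 1.96 times this SD were seen for 3 of the 20 genes, Idh1 higher and Idh2 and Mdh2 lower. Over all measured genes, 7.02% were beyond it on the higher side and 7.73% on the lower side. The members' 1 and 2 of 20 lie near those shares, and the remaining 17 ratios were smaller than that limit of measurement error.

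**Figure D2:**
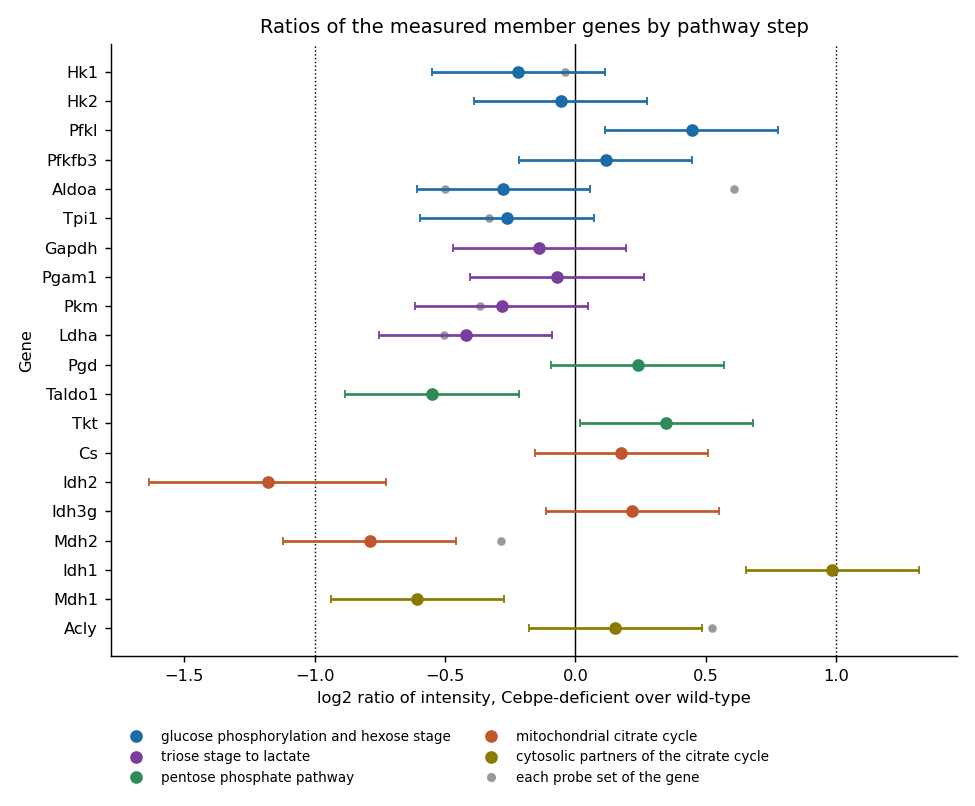
Log2 ratio of intensity, Cebpe-deficient over wild-type, for the 20 measured genes, coloured by pathway step. Bars are 1 SD of repeat probe sets, and grey points are all measured probe sets of each gene. Most genes lie between -0.61 and 0.45, with Idh2 at -1.18, Mdh2 at -0.79 and Idh1 at 0.99 outside; dotted lines mark 2-fold.

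In the hexose stage, glucose is phosphorylated, isomerised, phosphorylated again and split. Of 6 measured genes, 4 were below 0 and 2 above, and 0 differed by 2-fold (median -0.14); with bacterial-control scaling all 6 were above 0 (median 0.21). Hk1, the hexokinase of most tissues, read 19377 in deficient and 19923 in wild-type cells on A, and on B 20481 in deficient and 23844 in wild-type cells. Hk2, the hexokinase that insulin and hypoxia induce, read 3730 in deficient and 3881 in wild-type cells on B. Their log2 ratios, -0.04 and -0.22 for Hk1 and -0.06 for Hk2, are within measurement error.

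Pfkl, the liver-type subunit of phosphofructokinase, which catalyses the committed step, read 17307 in deficient and 12702 in wild-type cells, a log2 ratio of 0.45. Pfkfb3, which makes the sugar bisphosphate that activates phosphofructokinase, read 5441 in deficient and 5020 in wild-type cells, a ratio of 0.12. The muscle-type subunit gene Pfkm read 459 in deficient and -671 in wild-type cells, under the floor in both. Pfkl, the only measured subunit, had the highest ratio of the hexose stage when each gene was read by its brightest probe set, and Aldoa was higher than it on A.

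Aldoa, the aldolase that splits the hexose, gave opposite signs on the array types. On A it read 33744 in deficient and 22136 in wild-type cells, a log2 ratio of 0.61. On B its probe sets read 55089 and 50294 in deficient cells, against 66756 and 71098 in wild-type cells, ratios of -0.28 and -0.50. Those 3 ratios span 1.11 log2 units, so Aldoa has no settled direction here. Tpi1, which interconverts the triose phosphates, was lower on both types, at 22357 against 28148 on A and 24614 against 29519 on B in deficient against wild-type cells (-0.33 and -0.26, the one on B at 0.09 with bacterial-control scaling). All probe sets of Hk1, Aldoa, Tpi1, Gapdh, Pkm, Ldha, Pgd and Mdh1, and that of Mdh2 on A, carry the suffix for sequence shared within a gene family (15 in all). Another 14 carry the suffix for sequence shared by several transcripts, and signal of related sequences cannot be told apart from that of the named gene.

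In the triose stage, which yields ATP, pyruvate and lactate, all 4 measured genes were below 0 in deficient cells (median -0.21, range -0.42 to -0.07), none by 2-fold; under bacterial-control scaling Gapdh, Pgam1 and Pkm were above 0 and the median was 0.10. Gapdh, the dehydrogenase often used as a loading control, read 64851 in deficient and 71352 in wild-type cells on B, a log2 ratio of -0.14 that was 0.05 under quantile and 0.07 under loess normalisation. The array's own control probe sets for Gapdh, left out of the counts, gave ratios of 0.02, -0.05 and -0.06 on A for its 5′, middle and 3′ regions, and -0.21, -0.22 and -0.24 on B. Those of beta-actin were 0.12 to 0.14 on A and -0.25 to -0.16 on B, so these bright controls were lower on the deficient B array. Exceptions were bacterial-control scaling (0.12 to 0.14 for Gapdh on B, 0.10 to 0.20 for beta-actin) and, with beta-actin at -0.02 to 0.04, quantile normalisation. Loess ratios of these controls were not computed.

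Pgam1, phosphoglycerate mutase, read 8561 in deficient and 8990 in wild-type cells (-0.07). Pkm, pyruvate kinase, which forms pyruvate and ATP, read 46824 and 41669 in deficient cells by its probe sets, against 56951 and 53631 in wild-type cells (-0.28 and -0.36). Ldha, which reduces pyruvate to lactate and restores NAD, read 37310 and 33524 in deficient cells, against 49950 and 47541 in wild-type cells. Its ratios were -0.42 and -0.50. Read by the brightest probe set of each gene, Ldha had the lowest ratio of the glycolytic genes, though the dimmer Aldoa probe set on B was also at -0.50. Ldha stayed below 0 under every scaling tried, at -0.07 with the bacterial controls. Pgk1, phosphoglycerate kinase, read -203 in deficient and -407 in wild-type cells by its 1 probe set, under the floor in both, so nothing can be said of its level.

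The Ldha promoter window is shown because Ldha had the lowest ratio among glycolytic genes by their brightest probe sets, and it was picked with its motif matches known. It comes from RefSeq (GRCm38.p6, chr7:46845554-46845853, + strand, the first listed of 2 starts), from 250 bases before to 50 after the start. Capitals mark matches of ACGTG or GCGTG, the core of the hypoxia response element, of CACGTG (E-box), of TGACNNNGC (core of the antioxidant response element) or of TTNNGNAA (C/EBP), on either strand; each CACGTG holds ACGTG on both strands.
Ldha: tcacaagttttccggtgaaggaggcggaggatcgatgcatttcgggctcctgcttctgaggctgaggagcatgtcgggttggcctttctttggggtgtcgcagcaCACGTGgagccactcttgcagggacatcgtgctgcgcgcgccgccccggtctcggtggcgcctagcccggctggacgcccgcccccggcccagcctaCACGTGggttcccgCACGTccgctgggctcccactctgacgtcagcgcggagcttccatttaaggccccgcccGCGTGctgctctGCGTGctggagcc
The matches in it were CACGTG at positions -145 and -48, counted with the start as 0, a further ACGTG on the minus strand at -34, and GCGTG at 25 and 37.

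**Figure D3:**
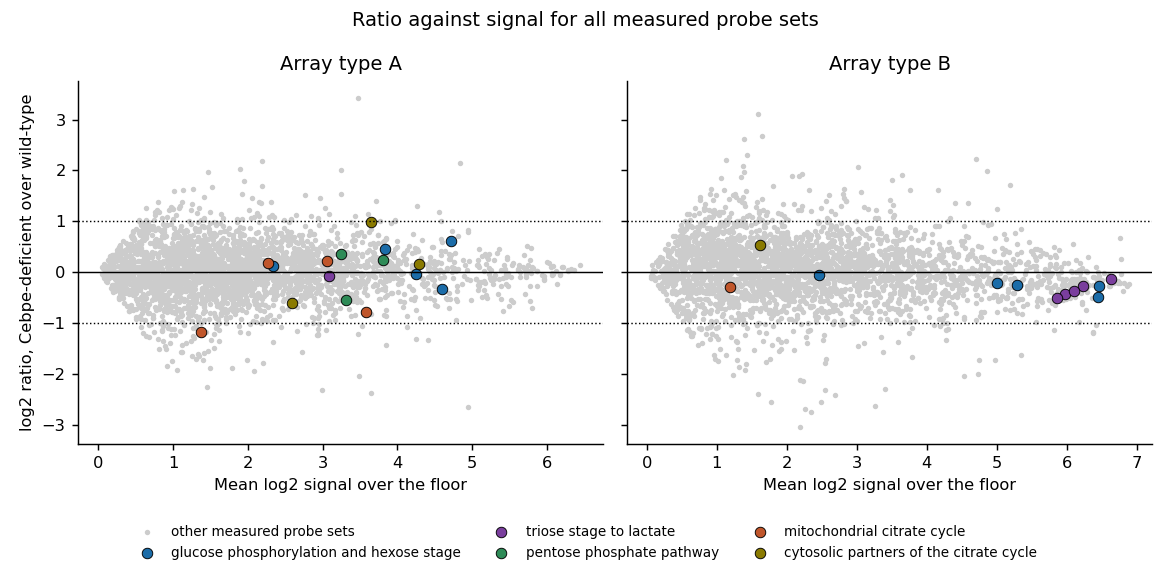
Log2 ratio, Cebpe-deficient over wild-type, against mean log2 signal over the floor for all measured probe sets (grey) of array type A (left) and B (right), with members coloured by pathway step. On B the bright glycolytic probe sets lie between -0.50 and -0.14, and of all 264 probe sets above 32 times the floor there 186 are below 0; with bacterial-control scaling the members' median on B was 0.07.

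Other bright probe sets on B also had lower signal. Of 12 member probe sets measured on B, 11 were below 0 (median -0.28), whereas 9 of 16 on A were above 0 (median 0.13). The corresponding shares below 0 over all measured probe sets were 48.2% on each type. Among the 264 probe sets on B over 32 times the floor, a limit chosen after the values were seen, 70.5% were below 0 and the median was -0.19. All 9 member probe sets above that limit, of Hk1, Aldoa, Tpi1, Gapdh, Pkm and Ldha, were below 0 with a median of -0.28. With loess normalisation, which removes a shift that depends on signal, the members' median on B was -0.13, and with bacterial-control scaling it was 0.07. Without family-shared probe sets, which leaves 3 member probe sets on B, it was -0.06.

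**Figure D4:**
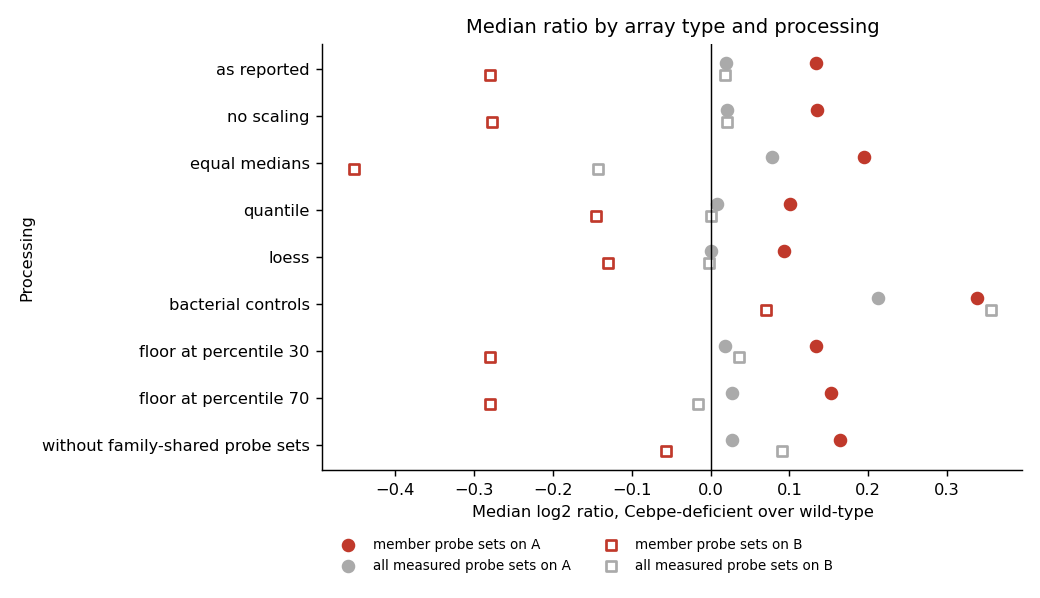
Median log2 ratio, Cebpe-deficient over wild-type, of member probe sets (red) and of all measured probe sets (grey) on array types A (filled circles) and B (open squares) under each processing. Members on A lie above the median of all probe sets on A, and members on B below that of all on B, in each of the 9 settings drawn; with bacterial controls the median on B was 0.07 for members and 0.36 for all.

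In the pentose phosphate pathway, 2 of 3 measured genes were above 0 (median 0.24, and -0.10 without the family-shared probe set of Pgd) and 0 differed by 2-fold. Pgd, phosphogluconate dehydrogenase, which makes NADPH in the oxidative branch, read 15717 in deficient and 13318 in wild-type cells (0.24). Tkt, transketolase of the non-oxidative branch, read 11114 in deficient and 8729 in wild-type cells (0.35). Taldo1, transaldolase of the same branch, read 8489 in deficient and 12430 in wild-type cells (-0.55). Transketolase and transaldolase thus lay on opposite sides of 0, each within measurement error, and G6pdx, the entry enzyme, had no named probe set.

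In the mitochondrial citrate cycle, 2 of 4 measured genes were below 0 and 2 above (median -0.31, and 0.18 where a floor at the 70th percentile left Idh2 with only a bound), with Idh2 lower by over 2-fold. Cs, citrate synthase, read 5297 in deficient and 4688 in wild-type cells (0.18). Idh3g, a regulatory subunit of the NAD-dependent isocitrate dehydrogenase, read 9314 in deficient and 8004 in wild-type cells (0.22). Both ratios are within measurement error. Idh3a, no listed member, is the catalytic subunit of the enzyme that Idh3g regulates. It read 822 in deficient and 1691 in wild-type cells, at least 1.63-fold lower. The value in deficient cells was under the floor, and no measurement error was set for bounds. With Idh3g within measurement error, no opposite direction of the subunits is settled.

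Idh2, which makes NADPH inside mitochondria, read 1783 in deficient and 4037 in wild-type cells. Its log2 ratio of -1.18 comes from 1 probe set at 1.72 times the floor in deficient and 3.89 times in wild-type cells. With the floor at the 70th percentile it had only a bound of -0.66, and with bacterial-control scaling its ratio was -0.98, which is under 2-fold.

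Mdh2, the mitochondrial malate dehydrogenase, read 9427 in deficient and 16279 in wild-type cells on A (-0.79), by a family-shared probe set. On B it read 1423 in deficient and 1732 in wild-type cells (-0.28), near the floor, by a probe set that is not family-shared. The log2 ratios thus differed by 0.50, and with bacterial-control scaling they were -0.58 on A and 0.07 on B.

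Among the cytosolic partners of the cycle, 2 of 3 measured genes were above 0 (median 0.15, and 0.57 without the family-shared probe set of Mdh1). Idh1, which oxidises isocitrate in the cytosol and makes NADPH there, read 18370 in deficient and 9280 in wild-type cells, 1.98-fold higher (0.99). This ratio comes from 1 probe set, on A, with the suffix for sequence shared by several transcripts. It was past 2-fold with equal medians (1.05) and with the bacterial controls (1.19), and between 0.96 and 0.99 with the other scalings. Mdh1, the cytosolic malate dehydrogenase of the malate-aspartate shuttle, read 5072 in deficient and 7722 in wild-type cells (-0.61), so the family-shared probe sets of both malate dehydrogenases on A had lower signal, under each scaling tried, while the Mdh2 probe set on B turned above 0 with the bacterial controls.

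Acly, which splits exported citrate into acetyl-CoA for lipid synthesis, was above 0 on both types. It read 21312 in deficient and 19173 in wild-type cells on A (0.15), and on B 2538 in deficient and 1766 in wild-type cells (0.52). Me1, the cytosolic malic enzyme and another source of NADPH, read 320 in deficient and 64 in wild-type cells, under the floor in both. Of 7 genes with several measured probe sets, 6 had 1 sign, Aldoa being the exception; with equal medians Hk1 was split as well (5 of 7), and with bacterial-control scaling Tpi1, Pkm and Mdh2 were too (3 of 7).

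The promoter windows of the isocitrate dehydrogenases, which had the lowest and the highest ratio, and of Mdh2 are shown from the same table and with the same capitals. Idh1 lies at chr1:65186430-65186729 (- strand, the first listed of 2 starts), Idh2 at chr7:80115301-80115600 (- strand) and Mdh2 at chr5:135778399-135778698 (+ strand), all on GRCm38.p6.
Idh1: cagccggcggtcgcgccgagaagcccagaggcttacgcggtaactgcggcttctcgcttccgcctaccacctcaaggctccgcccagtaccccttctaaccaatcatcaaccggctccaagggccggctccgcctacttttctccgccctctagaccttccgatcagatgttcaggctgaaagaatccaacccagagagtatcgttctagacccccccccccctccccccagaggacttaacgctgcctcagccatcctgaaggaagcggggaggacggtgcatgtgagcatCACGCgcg
Idh2: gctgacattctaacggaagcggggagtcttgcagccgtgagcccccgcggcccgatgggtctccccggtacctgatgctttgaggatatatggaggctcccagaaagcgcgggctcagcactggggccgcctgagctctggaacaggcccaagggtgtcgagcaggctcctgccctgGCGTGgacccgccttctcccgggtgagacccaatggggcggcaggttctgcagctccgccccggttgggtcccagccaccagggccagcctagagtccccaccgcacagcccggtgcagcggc
Mdh2: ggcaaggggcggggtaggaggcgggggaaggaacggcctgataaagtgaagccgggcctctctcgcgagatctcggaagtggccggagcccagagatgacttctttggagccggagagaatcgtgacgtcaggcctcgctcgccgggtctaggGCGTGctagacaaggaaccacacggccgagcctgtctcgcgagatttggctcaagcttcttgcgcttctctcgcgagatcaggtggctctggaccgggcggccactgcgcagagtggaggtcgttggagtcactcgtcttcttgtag
Each of these windows held 1 match, GCGTG, at position 42 on the minus strand for Idh1, -73 for Idh2 and -97 for Mdh2. None of them held TTNNGNAA, which says only that these letters are not in these windows.

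Promoter windows of all 32 listed genes were found, 52 in number. ACGTG was present in 27 of the 52 (51.9%), against 19.6% of all 32851 windows of the same length. GCGTG was present in 59.6% of the members' windows and 32.4% of all, CACGTG in 11.5% and 7.15%, and TGACNNNGC in 13.5% and 12.4%. TTNNGNAA was present in 30.8% of the members' windows and 40.7% of all. Windows of 1 gene can overlap, and a match is a description of letters, not a site.

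Neighbouring metabolic genes were read from 9 further lists, in which 42 of 147 genes had a ratio. Their median was -0.04, and past 2-fold 0 of the 42 were higher and 4 lower, against 2.97% higher and 3.64% lower of all measured genes. With equal medians these counts were 1 higher and 4 lower, and with bacterial-control scaling 3 higher and 2 lower. Another 11 genes had only a bound, which was past 2-fold for 3 on the higher side and 1 on the lower. Over all 617 genes with a bound, 9.89% were at least 2-fold higher and 9.08% at least 2-fold lower.

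Among transporters, Slc2a1, the glucose carrier of most cells, read 1612 in deficient and 3831 in wild-type cells (2.38-fold lower). Slc16a1, a carrier of lactate and pyruvate, read 2184 in deficient and 535 in wild-type cells on B, at least 3.16-fold higher against the floor, while its probe set on A was under the floor in both (184 in deficient and 497 in wild-type cells). Slc2a8, an intracellular glucose carrier, had the highest ratio of the 4 measured (0.79). Slc2a1 and Slc2a8, both glucose carriers, thus lay on opposite sides of 0.

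**Figure D5:**
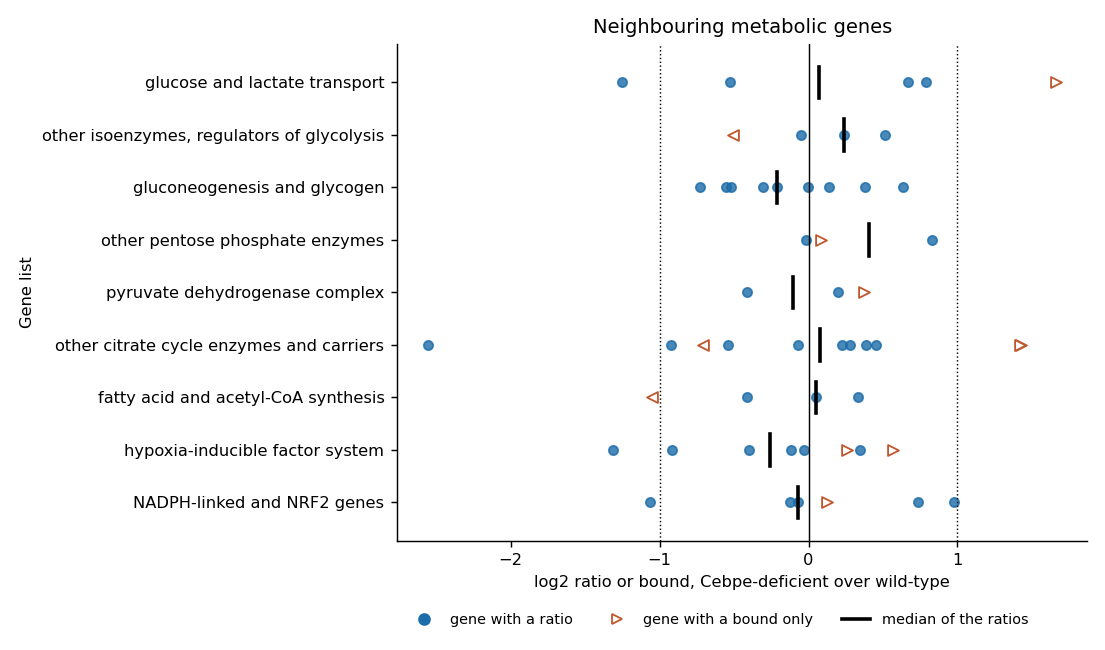
Log2 ratio (blue points) or bound (open triangles) of neighbouring metabolic genes, Cebpe-deficient over wild-type, by list, with the median of the ratios as a black bar and dotted lines at 2-fold. Acod1 at -2.55 is the lowest point, and Slc16a1 at 1.66 is the highest bound.

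Among other enzymes and carriers of the citrate cycle, 4 of 8 measured were below 0 (median 0.08, and 0.36 with bacterial-control scaling). Acod1, which diverts cis-aconitate from the cycle to itaconate, read 1601 in deficient and 9389 in wild-type cells on B (-2.55) and on A 3250 in deficient and 8442 in wild-type cells (-1.38). Another Acod1 probe set on A was under the floor in both (-76 in deficient and -165 in wild-type cells). Suclg1, the alpha subunit of succinyl-CoA synthetase, read 2783 in deficient and 1016 in wild-type cells, at least 2.69-fold higher. Suclg2, a beta subunit of the same enzyme, read 1563 and 1104 in deficient cells by its probe sets, against 2958 and 1840 in wild-type cells. Its ratios were -0.92 and -0.74, both from signal under 3 times the floor, and -0.74 was within measurement error. Suclg1 had only a bound, so no opposite direction of these subunits is settled. Got1, the cytosolic aspartate aminotransferase of the malate-aspartate shuttle, read 2778 in deficient and 213 in wild-type cells, at least 2.68-fold higher. Its value in wild-type cells was under the floor. Got2 of the same list read 18956 in deficient and 19891 in wild-type cells (-0.07). With Mdh1 of the same shuttle within measurement error, no contrast between Got1 and Mdh1 is settled. Sdhb, the iron-sulfur subunit of succinate dehydrogenase, had the highest ratio when each gene was read by its brightest probe set (0.45). A dimmer probe set of Glud1, of the same list, was higher at 0.70, while its brightest was at 0.23.

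In the hypoxia-inducible factor list, 5 of 6 measured genes were below 0 (median -0.26, and -0.05 with bacterial-control scaling). Another 2 genes, Arnt and Ndrg1, had only bounds, both on the higher side (0.57 and 0.26). With bounds included, the median of the list was -0.07. Ddit4, an inhibitor of mTOR signalling that hypoxia induces, read 884 in deficient and 2200 in wild-type cells (2.49-fold lower). Egln2, a prolyl hydroxylase that marks the factor for degradation, had the highest ratio (0.34). Hif1a, the oxygen-regulated subunit, read 8650 in deficient and 11408 in wild-type cells (-0.40, within measurement error).

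Of 5 measured NADPH-linked and NRF2 genes, 3 were below 0 (median -0.07, and 0.28 with bacterial-control scaling). Txnrd1, thioredoxin reductase, read 1775 in deficient and 3707 in wild-type cells (2.09-fold lower). Nfe2l2, which encodes the transcription factor NRF2 itself, read 8536 in deficient and 4339 in wild-type cells (0.98), the highest ratio of the list.

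In the remaining lists Scd2 was the only gene past 2-fold as scaled here. In gluconeogenesis and glycogen metabolism, 6 of 9 measured genes were below 0 (median -0.21, and 0.14 with bacterial-control scaling), from G6pc, a glucose phosphatase, at -0.73 to the phosphoglucomutase gene Pgm1 at 0.63. Among other glycolytic isoenzymes, Eno3, the muscle enolase, stood at 0.51 and Eno2, the neuronal one, at -0.05, 3 genes being measured. Rpia, ribose phosphate isomerase, stood at 0.83 and Prps1, which makes phosphoribosyl pyrophosphate, at -0.02 and, by a dimmer probe set, at -0.45. They were the only measured genes of their list. Dld, the shared dehydrogenase subunit of the pyruvate and oxoglutarate complexes, stood at -0.41 and Pdk1, an inhibitory kinase of the pyruvate complex, at 0.20, again the only ones measured. In lipid synthesis, Scd2, a fatty acid desaturase, read 779 in deficient and 2148 in wild-type cells, at least 2.07-fold lower. Scd1 of the same family stood at 0.33 and Fasn, fatty acid synthase, at -0.41.

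With the floor at the 70th percentile, Slc16a1, Suclg1, Got1, Slc2a1, Txnrd1 and Ddit4 had only bounds under 2-fold (0.10, 0.12, 0.12, -0.58, -0.53 and -0.11), and Scd2 had no value. With bacterial-control scaling Ddit4, Txnrd1 and Scd2 stood at -0.96, -0.86 and -0.96, also under 2-fold, whereas Nfe2l2, Rpia and the glucose carrier Slc2a2 stood at 1.18, 1.03 and 1.02, past it. Nfe2l2 was also past 2-fold with equal medians (1.04).

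Markers of the cells that the exudate could hold differed as well. Neutrophil markers were below 0 in 8 of 8 measured cases (median -0.57, range -2.40 to -0.08). Below 0 were 6 of 8 under quantile normalisation, 7 of 8 under loess and 6 of 8 under bacterial-control scaling (median -0.22). The summed intensity of the neutrophil markers was 103920 in deficient and 132614 in wild-type cells on A, and on B 98204 in deficient and 134650 in wild-type cells. This sum and those of the lists below also take in markers with only a bound. Monocyte and macrophage markers were split, with 8 of 13 below 0 and 5 above (median -0.52, range -2.30 to 0.97, and median -0.21 under bacterial-control scaling). Their sums were 204061 in deficient and 200141 in wild-type cells on A, and on B 256915 in deficient and 309777 in wild-type cells. Genes of cycling cells were below 0 in 9 of 10 (median -1.02, and -0.67 under that scaling), with sums of 12979 in deficient and 25268 in wild-type cells on A, and on B 8898 in deficient and 17998 in wild-type cells. Among T and NK cell markers Cd3d, Cd3g, Cd4, Cd8a, Thy1 and Klrb1c were under the floor in both genotypes, and so were the mesothelial markers Msln and Upk3b. Medians of the other lists were -1.04 for mesothelial cells and fibroblasts (4 measured), -0.58 for mast cells and eosinophils (3), -0.20 for erythroid cells (4) and -0.11 for B cells (5), and 1 T and NK cell marker had a ratio (-0.66). With bacterial-control scaling these were -0.69, -0.23, 0.08, 0.09 and -0.31 in the same order, so the erythroid and B cell medians turned above 0. The part of these markers in the enzyme ratios was not tested. The ratio of the 3′ to the 5′ control probe set of Gapdh was 0.76 in deficient and 0.80 in wild-type cells on A, and on B 0.82 in deficient and 0.84 in wild-type cells. That of beta-actin was 0.88 in deficient and 0.89 in wild-type cells on A, and on B 0.88 in deficient and 0.82 in wild-type cells, so the genes differed in direction on B.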

How the data were processed

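The authors deposited 1 array intensity per probe set on a linear scale, whole numbers of which 20.7% to 29.3% were below 0, as the values show; the sources used here do not give their software, background correction or scaling. Sample titles set the groups, since the source text of the deficient B array leaves the genotype out. The labels' sentence on combining cells is incomplete, so whether mice were pooled is unknown. Probe sets were named by the platform annotation (7542 probe sets had 1 symbol, 224 several and 5303 none, controls left out), and all 32 listed symbols were in RefSeq (GRCm38.p6). The arrays of a type were scaled to a common mean after leaving out 2% at each end (factors 0.999 to 1.001), and a bound was set against the floor where 1 array was above it. The members and lists were chosen with earlier results of these data known. Every listed gene is named. Of the neighbouring lists, genes past 2-fold and each list's highest and lowest ratio are named. So are Arnt, Glud1, Got2, Hif1a, Idh3a, Ndrg1, Suclg2 and Slc2a2, which were picked with their values in view. The cell markers are counted as lists. With 1 array per genotype and type no p-value is given, and the number of arrays limits the precision. The procedure was tested on simulated arrays. Changes were planted there only in probe sets well above the floor, so changes near the floor and bounds were not checked. The alternatives tried were bacterial-control scaling, loess (span 0.3), quantile, equal medians and no scaling, floors at the 30th and 70th percentile, 3-fold, the mean over probe sets, no suffixed probe sets and 1 array type at a time; leaving out family-shared probe sets was added after seeing the data. Python 3.11.15, numpy 2.4.6, pandas 2.3.3, statsmodels 0.14.6 and matplotlib 3.10.9 were used.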

Additional observations from a re-analysis of the deposited data

How the results depend on the processing

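No paired analysis was possible because each genotype had 1 array of each type and the labels give no replicate numbers. Of the 20 measured genes, 13 kept 1 sign under the alternatives that gave them a ratio; Hk1, Hk2, Aldoa, Tpi1, Gapdh, Pgam1 and Pkm did not. The count of member genes higher by 2-fold, 0 as reported, was 1 with equal medians and with the bacterial controls. The count lower, 1 as reported, was 0 with 3-fold, the bacterial controls, a floor at the 70th percentile, B alone and no suffixed probe sets. The median over members, -0.10 as reported, was -0.27 with equal medians, 0.17 with the bacterial controls, 0.13 on A alone, -0.26 on B alone, 0.12 without suffixed probe sets (1 gene left) and 0.13 without family-shared ones. The hexose-stage median (-0.14) was 0.21 with the bacterial controls, and 0.12 on A alone, without suffixed and without family-shared probe sets. The triose-stage median (-0.21) was 0.10 with the bacterial controls. The median of the mitochondrial cycle (-0.31) was 0.18 with a floor at the 70th percentile, which leaves Idh2 without a ratio, and -0.054 without family-shared probe sets. That of the pentose phosphate genes (0.24) was -0.10 without family-shared probe sets, and that of the cytosolic partners (0.15) was 0.52 on B alone and 0.57 without family-shared probe sets. The other causes were not tested. A median counted as moved when it shifted by more than its standard error from the repeat probe-set SD. Signal near the floor limits Idh2 and the bounded genes.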
